A study of Mus musculus with 8 samples.

Results

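The genes described here are 6 components of the renin-angiotensin system: angiotensinogen (Agt), renin (Ren1), angiotensin-converting enzyme (Ace), glutamyl aminopeptidase (Enpep), the type 1a angiotensin II receptor (Agtr1a) and the prorenin receptor (Atp6ap2). They were chosen by name from the gene names of the array and make up 6 of 36826 names. All 6 passed the filter on dim probes, and their 8 probes were each well above background on all 8 arrays. The study measured mRNA in the left kidney of 8 mice, 2 in each of 4 groups, with 1 array per kidney.

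Sham mice had a midline incision of the abdomen. IRI (ischaemia-reperfusion injury) mice had the right kidney removed and the left renal vessels clamped for 45 min and then released. Mice of the mimic group had the same operation 2 days after an injection into the tail vein of 5 nmol of a miR-5100 mimic with polyethyleneimine nanoparticles in 200 µl, and the control-miRNA mice received a control RNA in the same way. All left kidneys were taken 24 h after the operation. Sham mice kept both kidneys, so that loss of the other kidney and clamping cannot be told apart, and no group received nanoparticles without RNA. Strain and age were not given in the sources used here. Kidneys are named below by their group and mouse number (sham 1 and 4, IRI 30 and 34, control-miRNA 1 and 5, mimic 6 and 7).

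Renin is an enzyme secreted by the juxtaglomerular cells of the kidney's afferent arterioles, and it cuts angiotensinogen to angiotensin I. Angiotensin-converting enzyme, on endothelium and on the brush border of the proximal tubule, turns angiotensin I into angiotensin II, which acts mainly through the type 1 receptor to constrict vessels and retain sodium. Aminopeptidases and other peptidases break angiotensin II down or turn it into shorter peptides with receptors of their own, and the proximal tubule holds a local form of the system.

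The injected mimic has the sequence of the mature mouse miRNA miR-5100 (RefSeq, GRCm38.p6, chr11:60728698-60728718, plus strand). It is shown because it is the only designed agent of the study, with the seed (bases 2 to 8) in capitals.
miR-5100: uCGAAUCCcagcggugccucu
The array carries 2 probes for Ren1 and 2 for Enpep, and 3 of these 4 are shown because the results for both genes depend on which probe is read. All are 60 bases long with at least 1 open reading frame, in lower case throughout, at their mm9 positions in the array files.
Ren1 main probe, chr1:135255035-135255094, plus strand: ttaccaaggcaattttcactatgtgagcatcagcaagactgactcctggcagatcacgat
Ren1 other probe, chr1:135250782-135250841, plus strand: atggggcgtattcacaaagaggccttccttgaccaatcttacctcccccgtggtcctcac
Enpep other probe, chr3:129002052-129006662, minus strand, joined across an intron: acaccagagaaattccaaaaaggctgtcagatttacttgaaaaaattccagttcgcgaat
The main probe of a gene is the brightest of its probes. For the other members it lay at chr8:127080661-127080720 for Agt, chr11:105850398-105850457 for Ace, chr13:30474638-30474697 for Agtr1a, chr3:128972910-128972969 for Enpep and chrX:12193624-12193683 for Atp6ap2, all in mm9.

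A level below is the log2 processed signal of a gene's main probe minus the 75th percentile of its array, so that 0 is the brightness of the array's 75th percentile spot. Levels of different genes come from different probes and were not set against each other. A gene is said to have risen or fallen where limma, fitted on all 8 arrays and 21264 genes, gave an adjusted p (Benjamini-Hochberg) under 0.05. Differences are in log2 units with their standard error, over 2 mice per group. The array 75th percentiles ranged from 242 to 600 intensity units, and the mimic arrays were the dimmest at 308 and 242. The sham and IRI arrays lay in one row of the slide and the mimic and control-miRNA arrays in the other, so that injection and row cannot be told apart. Proximal tubule markers (14 of 14) and podocyte markers (8 of 8) were measured on these arrays, as the labelled tissue requires. These are whole-tissue samples, in which fewer cells of a type and less RNA per cell cannot be told apart.

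Ace and Agtr1a fell in all 3 injured groups, and no member rose in any comparison (9.45%, 9.55% and 15.2% of all genes rose in IRI, control-miRNA and mimic kidneys). In IRI kidneys 2 of 6 members fell, where 8.85% of all genes tested fell. The control-miRNA group had 2 of 6 lower, where 7.79% of all genes fell, and the mimic group 4 of 6, where 12.8% fell: Ace, Agtr1a, Enpep and Atp6ap2. These 3 comparisons share the same 2 sham arrays. Ace and Agtr1a were also the only members with all 6 injured kidneys below both sham kidneys, a pattern that 17.7% of all genes had. A fall in all 3 comparisons was called for 2 of 6 members and for 4.68% of all genes.

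**Figure D1:**
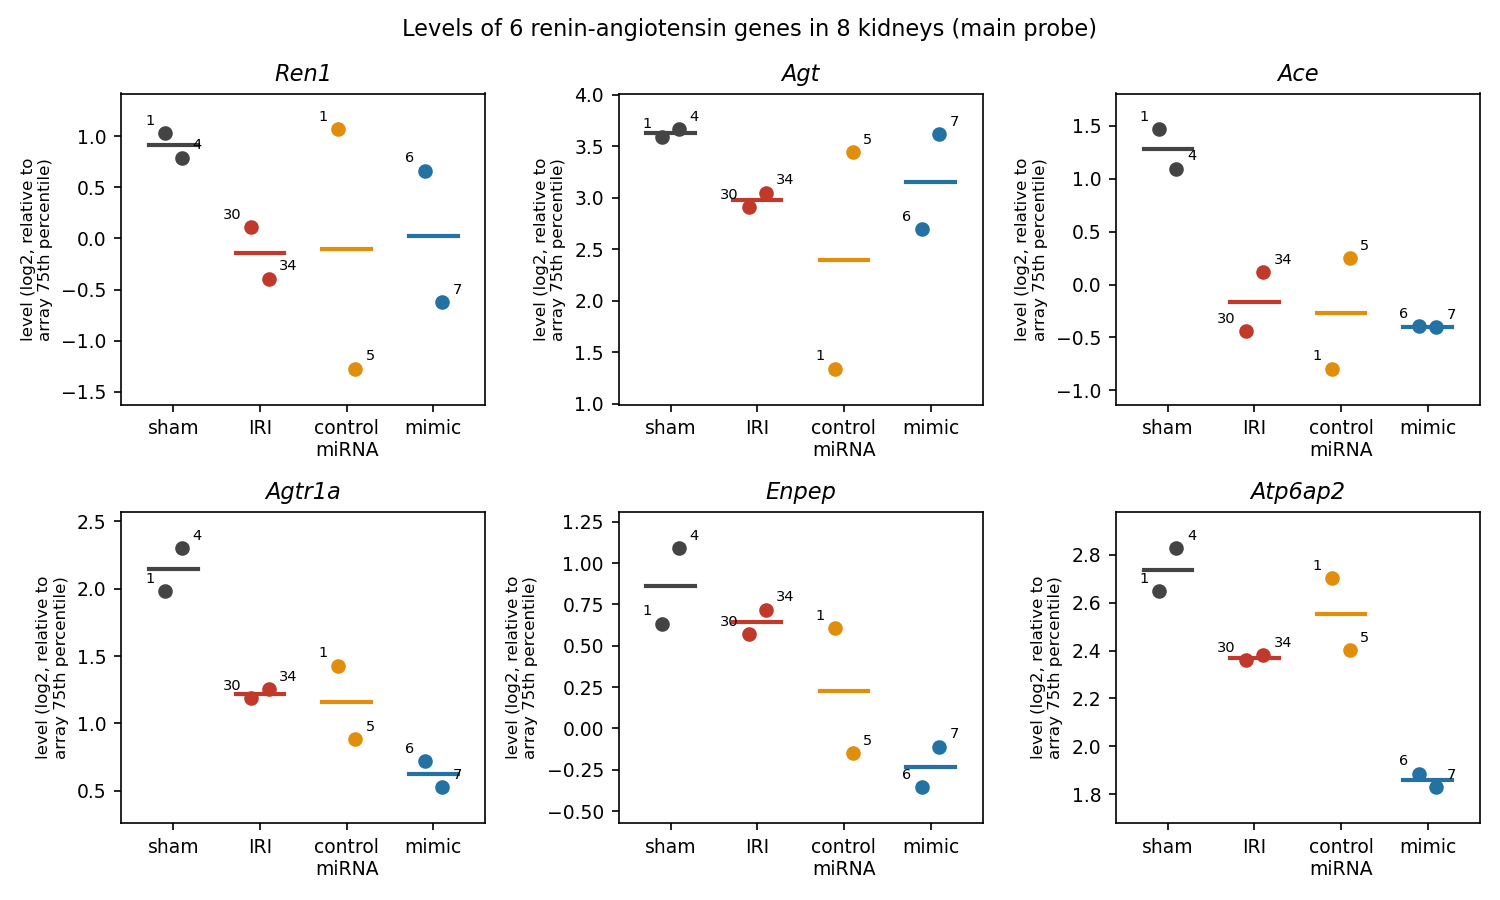
Level of each of the 6 genes (log2, relative to the array's 75th percentile) in the 4 groups; each point is 1 kidney with its mouse number and each bar is the mean of 2. All 6 injured kidneys lie below both sham kidneys for Ace and Agtr1a, while the control-miRNA kidneys lie 2.34 apart for Ren1 and 2.10 apart for Agt.

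The median difference of the 6 genes from sham was -0.78 in IRI, -1.001 in control-miRNA and -0.99 for mimic kidneys, beside medians of -0.08, -0.05 and 0.11 over all genes. As measured on the main probes with all arrays, all 6 differences were negative in each of the 3 comparisons. Some turned positive under another choice: Ren1 in mimic kidneys became 0.67 with array brightness as a covariate, Ren1 in control-miRNA kidneys 0.16 without control-miRNA 5, Enpep in IRI kidneys 0.0099 without sham 4, and Enpep in mimic kidneys 0.97 on its other probe. Members whose groups did not overlap and were lower numbered 5 of 6 in IRI (38.7% of all genes), 4 of 6 in control-miRNA (35.6%) and 5 of 6 in mimic kidneys (29.6%).

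**Figure D2:**
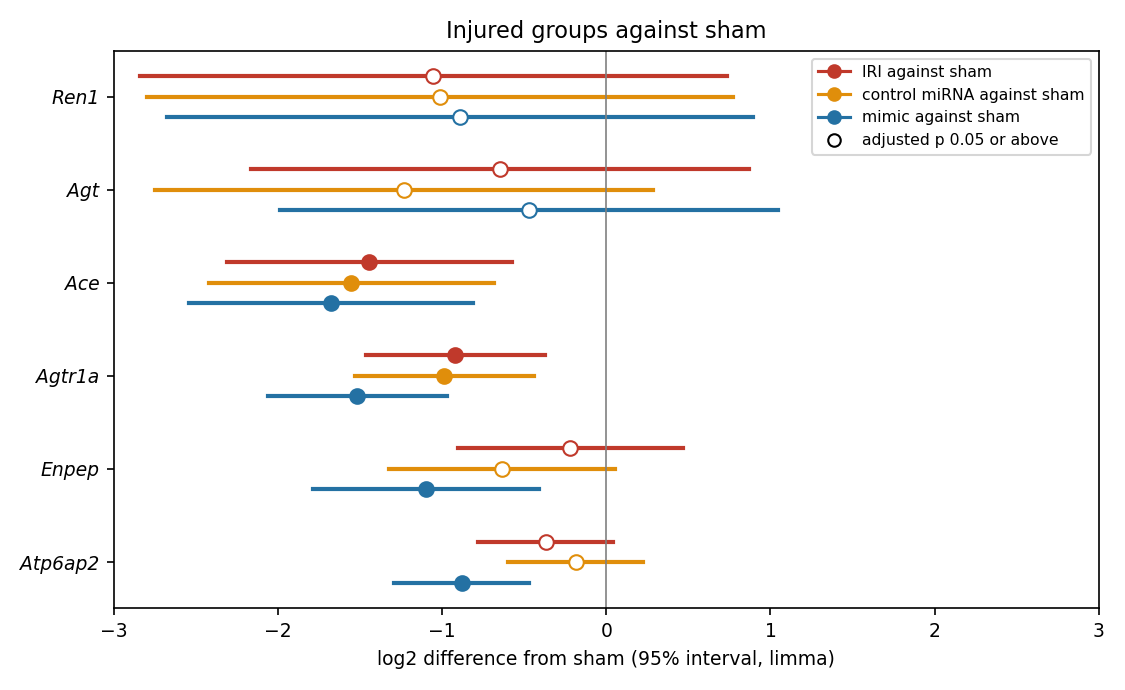
Difference of each injured group from sham for the 6 genes (log2, horizontal axis), with the 95% interval from limma; open circles had an adjusted p of 0.05 or above. Every estimate lies below 0, and only Ace and Agtr1a have filled circles in all 3 groups.

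Agt encodes angiotensinogen, the substrate from which all angiotensins are cut; in the kidney it is made in the proximal tubule. Its level was 3.59 in sham 1 and 3.66 in sham 4, 2.91 in IRI 30 and 3.05 in IRI 34. In control-miRNA 1 it was 1.34 and in control-miRNA 5 it was 3.44, and mimic 6 and mimic 7 had 2.69 and 3.62. Both IRI kidneys were lower than both sham kidneys, but control-miRNA 5 and mimic 7 were close to sham, and control-miRNA 1 stood far below every other kidney. The 2 control-miRNA kidneys differed 4.29-fold, a gap above that of 99.3% of all genes between these 2 arrays. No difference from sham was called: it was -0.65 ± 0.64 in IRI (95% interval -2.16 to 0.87, limma adjusted p = 0.505), -1.23 ± 0.64 in control-miRNA (-2.75 to 0.28, adjusted p = 0.226) and -0.47 ± 0.64 with the mimic (-1.99 to 1.05, adjusted p = 0.596). This fit pools the spread of all 4 groups. In a fit of the IRI and sham arrays alone, the same -0.65 had a standard error of 0.13 and an adjusted p of 0.0238. Without control-miRNA 5 the control-miRNA difference became -2.28 (limma adjusted p = 0.0227), and without control-miRNA 1 it was -0.18.

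Serpina1a and Slc22a7, chosen after their values were seen, also differed widely between the 2 control-miRNA kidneys. Serpina1a encodes an alpha-1-antitrypsin, made in liver and also in the mouse proximal tubule, and Slc22a7 an organic anion transporter of the tubule. Serpina1a had a level of 2.73 in control-miRNA 1 and 6.15 in control-miRNA 5, beside 6.26 and 6.28 in the sham kidneys, 4.11 and 5.02 in the IRI kidneys, and 5.07 and 6.23 in mimic 6 and mimic 7. Slc22a7 had -0.03 in control-miRNA 1 and 3.14 in control-miRNA 5, against 6.24 and 4.99 in sham 1 and 4, -0.11 and 1.17 in IRI 30 and 34, and 2.12 and 1.83 in mimic 6 and 7. Slc22a7 is 1 of the 14 proximal tubule markers and had the widest gap among them between these 2 kidneys. In control-miRNA 1 and 5, Lrp2 of that list had 4.95 and 5.24. Slc5a12 went the other way, with 3.99 and 3.06. The summed level of all 14 was 908 and 1130, so the list as a whole did not share the gap of Slc22a7. The lower kidney of each injected group was the same for Agt and Serpina1a. Of the hepatocyte list, 7 of 9 genes were measured; its summed level, in multiples of the array's 75th percentile, was 91.9 to 94.5 in sham, 22.8 to 37.7 in IRI, 12.4 and 77.3 in control-miRNA 1 and 5, and 38.3 to 79.9 in mimic kidneys. Serpina1a alone made up 53.4% of that sum in control-miRNA 1 and up to 93.6% in mimic 7, so the sum largely repeats its values. Summed without Serpina1a, a choice made after its level was seen, the other 6 genes gave 17.9 and 14.3 in the sham kidneys, 5.50 and 5.31 after IRI, 5.79 and 6.35 in control-miRNA 1 and 5, and 4.67 and 5.08 with the mimic. On that sum the control-miRNA kidneys stood close together, unlike for Agt. Its brightest genes there, Apoa2 and Ttr, had 1.48 and 1.25 in control-miRNA 1 and 1.77 and 0.57 in control-miRNA 5. Apoh, a dimmer gene of the list, did differ widely, with -1.84 in control-miRNA 1 and 0.18 in control-miRNA 5. Apoa1 and Ahsg of that list were not well above background. The part of cell make-up in the spread of Agt was not tested.

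Ren1 encodes renin, the enzyme that starts the cascade. Its main probe had a level of 1.03 in sham 1 and 0.79 in sham 4, and 0.11 and -0.39 in IRI 30 and 34. Control-miRNA 1 had 1.07 and control-miRNA 5 had -1.27, while mimic 6 had 0.66 and mimic 7 had -0.63. One kidney of each injected group was near or above sham and the other was the lowest or among the lowest of all 8. The gap between the control-miRNA kidneys was 5.07-fold, above that of 99.5% of all genes, and the mimic kidneys differed 2.45-fold. The difference from sham was -1.05 ± 0.75 in IRI (95% interval -2.84 to 0.73, limma adjusted p = 0.359), -1.02 ± 0.75 in control-miRNA (-2.80 to 0.77, adjusted p = 0.388) and -0.89 ± 0.75 with the mimic (-2.68 to 0.89, adjusted p = 0.394), so that no change was called. With the IRI and sham arrays alone the adjusted p was 0.0261 for the same -1.05. Without control-miRNA 5 the control-miRNA difference was 0.16, against -2.19 without control-miRNA 1.

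The other Ren1 probe, at the second of the sequences above, ordered the kidneys within each group as the main probe did, except in sham. It read -1.45 and -1.23 in sham 1 and 4, -1.65 and -2.11 in IRI 30 and 34, -1.09 and -2.24 in control-miRNA 1 and 5, and -1.44 and -2.29 in mimic 6 and 7. Its differences from sham were -0.54 ± 0.43 in IRI, -0.33 ± 0.43 in control-miRNA and -0.52 ± 0.43 with the mimic, with limma adjusted p of 0.424, 0.648 and 0.380. Ren2, a near-identical second renin gene that some mouse strains carry, had a probe of its own with levels of 4.25 and 4.09 in sham kidneys, 3.38 and 2.72 after IRI, 4.42 and 2.53 with the control miRNA, and 4.17 and 3.62 with the mimic. The 3 renin probes share no run longer than 6 bases, but the transcripts of such close copies can bind each other's probes, and which of the genes each probe read is uncertain. By the root mean square difference of mean-centred levels over the 8 arrays, Ren2 was the gene most like Ren1 (0.35), followed by Sema3e (0.43) and Slc17a4 (0.43), where the median over all genes was 0.89.

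The podocyte markers, genes of the glomerular filter beside which renin cells sit, were lowest in the same kidney as Ren1. Their summed level was 16.2 to 18.9 in sham, 8.71 in the lower of the IRI kidneys, 18.8 in control-miRNA 1 and 3.86 in control-miRNA 5, and 14.4 and 23.3 in mimic 6 and 7. Control-miRNA 5 was thus the lowest of all 8 kidneys for both, while mimic 7 was low for Ren1 and highest for the podocyte list. Akr1b7, an aldo-keto reductase that renin cells express, had -1.16 and -1.04 in sham kidneys, -1.65 and -2.27 after IRI, -1.54 and -2.48 with the control miRNA, and -1.14 and -1.27 with the mimic. Each array used RNA from 30 mg of kidney, and the part of the glomerular share of that piece in the Ren1 values was not tested.

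**Figure D3:**
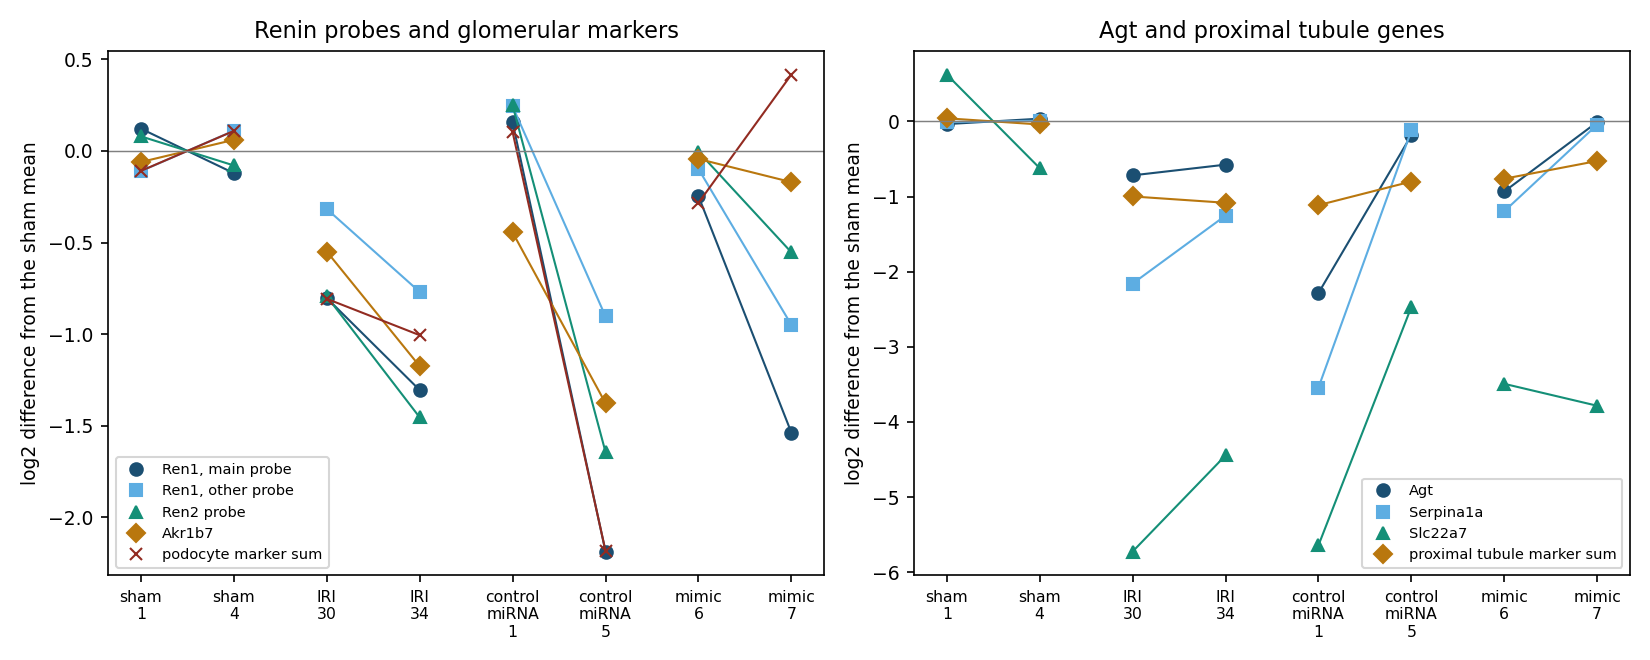
Log2 difference from the sham mean in each kidney (horizontal axis: group and mouse number; lines join the 2 kidneys of a group). Left, the 3 renin probes, Akr1b7 and the summed podocyte markers, all lowest in control-miRNA 5 except the other Ren1 probe, which was lowest in mimic 7; right, Agt, Serpina1a, Slc22a7 and the summed proximal tubule markers, with Agt and Serpina1a lowest in control-miRNA 1.

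Ace encodes the peptidase that makes angiotensin II and also breaks down bradykinin. Its level was 1.47 in sham 1 and 1.10 in sham 4. The IRI kidneys had -0.44 and 0.11, the control-miRNA kidneys -0.80 and 0.25, and the mimic kidneys -0.39 and -0.40. All 6 injured kidneys were below both sham kidneys, and the 3 injured groups overlapped each other. Ace was 2.72-fold lower in IRI (-1.44 ± 0.37, limma adjusted p = 0.0381), 2.94-fold lower in control-miRNA (-1.55 ± 0.37, adjusted p = 0.0321) and 3.20-fold lower with the mimic (-1.68 ± 0.37, adjusted p = 0.0187). Mimic and control-miRNA kidneys differed by -0.12 ± 0.37 (95% interval -0.99 to 0.74, adjusted p = 0.828). The genes whose levels ran closest to those of Ace over the 8 arrays were Folr2 (root mean square difference 0.15), Mep1a (0.15) and Cyp2j8 (0.18), against a median of 0.82 over all genes. Mep1a encodes a subunit of meprin, another peptidase of the brush border.

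The fall of Ace came with lower proximal tubule markers. Their summed level was 1912 to 2024 times the 75th percentile in sham, 928 to 984 in IRI, 908 to 1130 in control-miRNA and 1159 to 1365 in mimic kidneys. Kap, an abundant proximal tubule transcript, carried 34.5% of that sum in sham 4 and up to 69.1% in mimic 6. Without Kap, a choice made after its level was seen, the sum was 1249 and 1253 in the sham kidneys, 438 and 468 after IRI, 395 and 476 with the control miRNA, and 358 and 485 with the mimic. On that sum the kidneys of all 3 injured groups were below both sham kidneys and the mimic kidneys no longer stood above the others. Of the 14 markers 11 fell after IRI, 12 with the control miRNA and 11 with the mimic, and none rose. Of the endothelial markers, which mark the other site of Ace, 0 of 10 passed the test against sham in any of the 3 groups by limma. Their levels still moved: 9 of 10 differences from sham were negative in IRI kidneys (median -0.53) and 10 of 10 in control-miRNA kidneys (median -0.59), whereas 8 of 10 were positive in mimic kidneys (median 0.39). Their summed level was 38.3 to 45.0 in sham, 27.8 to 28.3 in IRI, 27.5 to 31.9 in control-miRNA and 49.9 to 60.7 in mimic kidneys. The part of fewer or altered tubule or endothelial cells in the Ace values was not tested.

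Enpep encodes aminopeptidase A, a brush-border and podocyte enzyme that trims angiotensin II to angiotensin III. Its main probe read 0.63 and 1.09 in sham 1 and 4, 0.57 and 0.72 in IRI 30 and 34, 0.61 and -0.15 in control-miRNA 1 and 5, and -0.36 and -0.11 in mimic 6 and 7. The mimic kidneys lay below the sham and IRI kidneys and overlapped with control-miRNA 5. The fall in mimic kidneys was 2.14-fold (-1.10 ± 0.29, limma adjusted p = 0.0334), while IRI (-0.22 ± 0.29, 95% interval -0.91 to 0.47, adjusted p = 0.623) and control-miRNA (-0.63 ± 0.29, -1.32 to 0.05, adjusted p = 0.177) were not called. The other Enpep probe, the third of the sequences above, went the opposite way in mimic kidneys. It read -1.43 and -1.49 in the sham kidneys, -1.51 and -2.25 in IRI 30 and 34, -1.80 and -2.22 in control-miRNA, and -1.04 and 0.06 in mimic 6 and 7. Its difference from sham was 0.97 ± 0.40 in mimic kidneys (limma adjusted p = 0.108), with both mimic kidneys above all 6 others. With the mean of both probes, the Enpep difference between mimic and sham was -0.06 (limma adjusted p = 0.887). The fall was thus called for 1 of its 2 probes. On the main probe it kept its call under normexp correction, quantile normalization and the deposited ratios. The call was lost without the filter on dim probes (limma adjusted p = 0.0635) and in a fit of mimic and sham arrays alone (0.0518). With array brightness as a covariate the difference was -0.59 (limma adjusted p = 0.592). Leaving out 1 array at a time gave differences of -1.33 to -0.87, and the call was lost in 6 of these 8 runs. It was kept only in the 2 runs without a control-miRNA array.

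This disagreement between probes of 1 gene was larger wherever mimic arrays entered a comparison. Over the 7346 genes with 2 or more probes, the median range between a gene's probes was 0.32 in IRI and 0.32 in control-miRNA against sham, but 0.70 in mimic against sham, 0.73 in mimic against control miRNA and 0.79 in mimic against IRI. Probes of 1 gene had opposite signs for 29.9% of these genes in IRI, 30.5% in control-miRNA and 42.3% with the mimic, each against sham. For the 11 other pathway genes (described below) with 2 or more probes the shares were 36.4%, 27.3% and 54.5%. In mimic against IRI the share was 63.6% of these 11, beside 50.6% of all such genes. Ace, Agtr1a, Agt and Atp6ap2 had 1 probe each, so that their values could not be compared in this way.

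Agtr1a encodes the main angiotensin II receptor of the mouse kidney. Its level was 1.98 and 2.30 in sham 1 and 4, 1.19 and 1.26 in IRI 30 and 34, 1.43 and 0.88 in control-miRNA 1 and 5, and 0.72 and 0.53 in mimic 6 and 7. All 6 injured kidneys were below sham, and the mimic kidneys were the lowest of all 8. The receptor fell 1.89-fold in IRI (-0.92 ± 0.23, limma adjusted p = 0.0367), 1.98-fold in control-miRNA (-0.99 ± 0.23, adjusted p = 0.0312) and 2.87-fold with the mimic (-1.52 ± 0.23, adjusted p = 0.00632). Between mimic and control-miRNA kidneys the difference was -0.53 ± 0.23 (95% interval -1.08 to 0.01, adjusted p = 0.155), and between mimic and IRI kidneys it was -0.60 ± 0.23 (-1.14 to -0.05, adjusted p = 0.103), neither of them called. The genes closest to its profile were Angpt1, which encodes the vascular growth factor angiopoietin-1 (0.11), Prkcz (0.11) and Acss1 (0.13), against a median of 0.67.

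Atp6ap2 encodes the (pro)renin receptor, which is also an accessory subunit of the vacuolar proton pump. Its level was 2.65 and 2.83 in sham kidneys, 2.36 and 2.38 after IRI, 2.70 and 2.40 with the control miRNA, and 1.89 and 1.83 with the mimic. Both mimic kidneys lay below all 6 others, which overlapped in part. It fell 1.84-fold in mimic kidneys (-0.88 ± 0.17, limma adjusted p = 0.0136). The difference from sham was -0.37 ± 0.17 in IRI (95% interval -0.78 to 0.04, adjusted p = 0.183) and -0.19 ± 0.17 in control-miRNA (-0.60 to 0.22, adjusted p = 0.488). Coa6, Vps13b and Sos2 ran closest to it, at 0.04, 0.05 and 0.06 over the 8 arrays, against a median of 0.50.

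These calls rest on few arrays. Without sham 1, sham 4, IRI 30 or IRI 34, each left out alone, no member was called in IRI against sham, and the adjusted p of Ace rose to as much as 0.198 and that of Agtr1a to 0.198, although both stayed negative. In control-miRNA against sham the count was 0 without sham 1 or sham 4, and 1 without IRI 30, IRI 34 or control-miRNA 1. In mimic against sham it was 1 without sham 1, where Agtr1a was left, 0 without sham 4 and 2 without mimic 7. With array brightness as a covariate, 0 members and 115 genes in all were called in mimic against sham, and 1 member (Agtr1a) in IRI against sham. Without the filter on dim probes, neither Ace (limma adjusted p = 0.0697 and 0.0599) nor Agtr1a (0.0789 and 0.0683) was called in IRI or control-miRNA against sham. A fit of the control-miRNA and sham arrays alone called 0 members, with 0.0578 for Ace and 0.0571 for Agtr1a. The control-miRNA difference of Agtr1a from sham shrank to -0.71 without control-miRNA 5 and was -1.26 without control-miRNA 1.

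The mimic was compared with the control miRNA to ask what the miR-5100 sequence adds to the injection. No member was called there (0 of 6), nor was any of the 21264 genes (0%) by limma. At an unadjusted p under 0.05 the count was 1 of 6 members and 33.8% of all genes. That member was Atp6ap2, with -0.69 ± 0.17 (95% interval -1.11 to -0.28, adjusted p = 0.0676) and both mimic kidneys below both control-miRNA kidneys. Agtr1a was likewise lower without overlap, which makes 2 of 6 members, beside 26.1% of all genes. After normexp background correction Atp6ap2 was called at -0.77 (limma adjusted p = 0.0307), with 5833 of all genes, and without mimic 6 at -0.72 (adjusted p = 0.0426), with 6318 of all genes.

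Against IRI kidneys, the mimic kidneys had 0 of 6 members called, where 16% of all genes were, and 3 of 6 at an unadjusted p under 0.05, where 39.8% of all genes were: Agtr1a, Enpep (-0.88 ± 0.29, limma adjusted p = 0.0737) and Atp6ap2 (-0.51 ± 0.17, adjusted p = 0.0768). These 3 were also the members lower without overlap (29% of all genes). After normexp correction all 3 were called, as were 10343 of all genes. Between control-miRNA and IRI kidneys, limma called 0 of 6 members and 0% of all genes, and an unadjusted p under 0.05 was found for 0 of 6 members and 4.09% of all genes.

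Other genes of the renin-angiotensin pathway moved in both directions. Of 26 listed, 18 could be tested. In IRI kidneys 3 rose and 4 fell (7 of 18, where 18.3% of all genes were called in either direction), in control-miRNA kidneys 3 rose and 3 fell (17.3% of all genes), and in mimic kidneys 2 rose and 3 fell (28% of all genes). Their median difference was -0.33, -0.29 and -0.41. Leaving out 1 array gave 1 to 9 called genes in IRI, 1 to 9 in control-miRNA and 1 to 7 in mimic kidneys, with 1 called in IRI without sham 1, sham 4, IRI 30 or IRI 34.

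Among enzymes that act on angiotensins, Mme and Nln changed in all 3 groups. Mme encodes neprilysin, a brush-border peptidase that turns angiotensin I into angiotensin-(1-7); its level was 1.22 and 1.53 in sham kidneys, -0.36 and 0.34 after IRI, -0.01 and 0.10 with the control miRNA, and -0.96 and -0.08 with the mimic. It fell by 1.39 ± 0.35 in IRI and by 1.33 ± 0.35 in control-miRNA kidneys, and fell by 1.89 ± 0.35 with the mimic (limma adjusted p = 0.037, 0.0432 and 0.0111). Nln encodes neurolysin, a soluble peptidase, with levels of 0.59 and 0.51 in sham kidneys, 1.67 and 1.54 after IRI, 1.83 and 1.73 with the control miRNA, and 1.60 and 1.06 with the mimic. It rose by 1.05 ± 0.21, 1.23 ± 0.21 and 0.78 ± 0.21 (limma adjusted p = 0.0188, 0.0127 and 0.0361), though its probes ranged from -0.64 to 0.78 in mimic kidneys, where those of Mme ranged from -1.89 to -0.21.

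Further peptidases changed in some groups. Ctsd, the lysosomal aspartic protease cathepsin D, which can cut angiotensinogen, rose by 1.61 ± 0.35 in IRI and 1.30 ± 0.35 in control-miRNA kidneys (limma adjusted p = 0.0257 and 0.0487). Its level was 5.47 and 5.44 in sham kidneys, 7.12 and 7.00 after IRI, 6.84 and 6.67 with the control miRNA, and 6.83 and 5.65 with the mimic, so that mimic 7 was close to sham. Ctsa, cathepsin A, fell by 0.77 ± 0.20 in IRI and 0.87 ± 0.20 in control-miRNA kidneys. Thop1, thimet oligopeptidase, rose by 0.83 ± 0.23 in IRI kidneys, but its probes ranged from -0.15 to 0.83. Prep, prolyl oligopeptidase, rose by 0.92 ± 0.24 in control-miRNA kidneys. Both Prep (-1.03 ± 0.24) and Thop1 (-0.94 ± 0.23) were lower in mimic than in IRI kidneys (limma adjusted p = 0.0418 and 0.0435). They were among 3 of 18 pathway genes called in that comparison (16.7%), a share near the 16% of all genes.

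Of the receptors and partners, Lrp2 showed the most even fall. It encodes megalin, the endocytic receptor that takes up filtered angiotensinogen and renin, and is also one of the 14 proximal tubule markers. Its level was 7.06 and 7.08 in sham and between 4.74 and 5.25 in the 6 injured kidneys. Lrp2 fell by 1.90 ± 0.19 with IRI, fell by 1.98 ± 0.19 with the control miRNA and fell by 2.16 ± 0.19 with the mimic (limma adjusted p = 0.0021, 0.00226 and 0.00155). Mas1, the receptor of angiotensin-(1-7), fell by 2.22 ± 0.54 in IRI kidneys (adjusted p = 0.0337), from -1.53 and -2.60 in sham to -4.59 and -3.98; it was well above background on 7 of 8 arrays, the exception being IRI 30, so its lower IRI value is at the limit of detection. Atp6ap1, another accessory subunit of the proton pump, fell in mimic kidneys (-1.29 ± 0.35 against sham, adjusted p = 0.0376). Arap1, which acts in receptor trafficking, rose there by 0.72 ± 0.20 (adjusted p = 0.036). Probes for Agtr1b, Agtr2, Ace3, Mrgprd and the mast cell proteases Ctsg, Cpa3, Cma1 and Mcpt4 were not well above background on both arrays of any group.

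**Figure D4:**
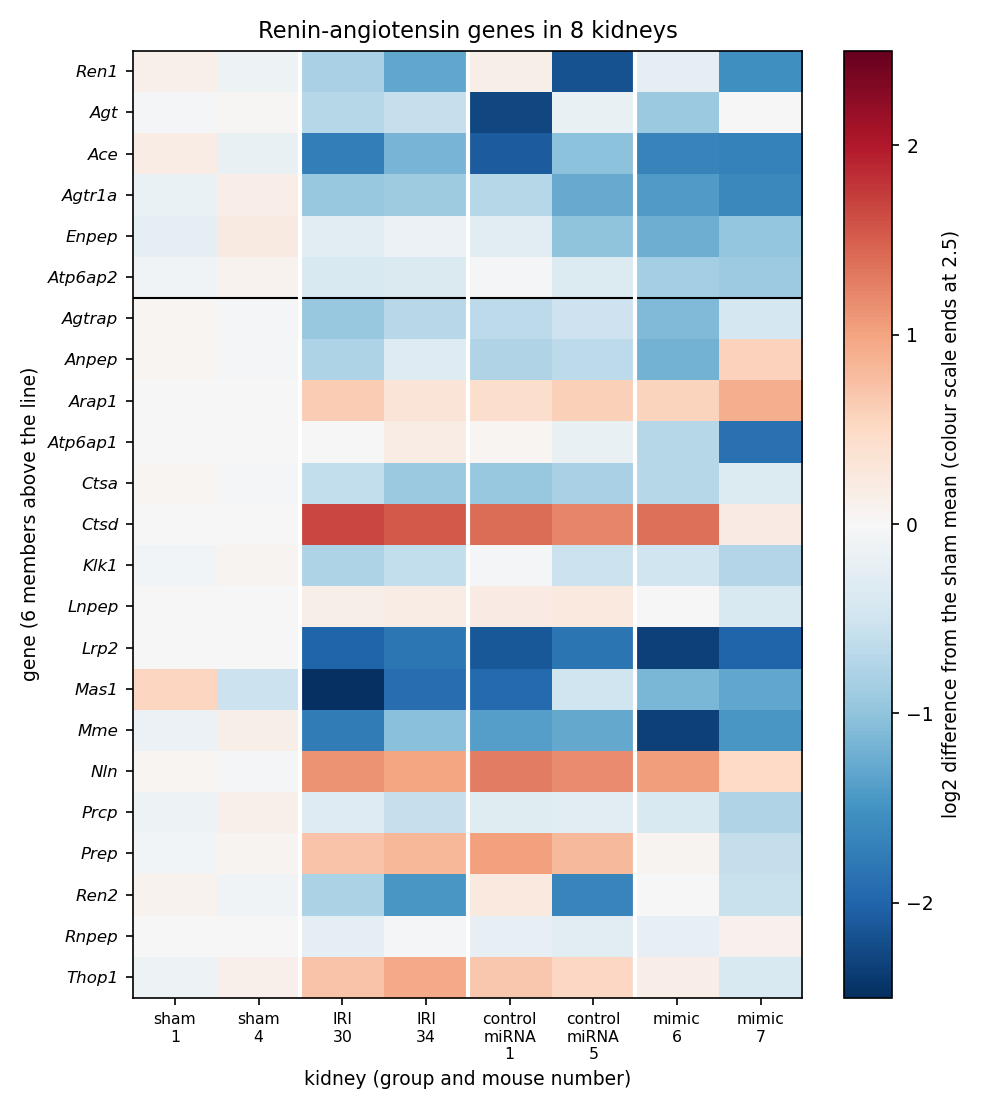
Log2 difference from the sham mean for the 6 members (above the line) and other pathway genes tested, in each of the 8 kidneys; blue is lower and red higher. Lrp2 and Mme are blue and Nln is red in all 6 injured kidneys.

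Genes that control renin release were examined as a list of 30, of which 27 were tested. In IRI kidneys 3 rose and 2 fell, in control-miRNA 2 rose and 1 fell, and in mimic kidneys 5 rose and 2 fell, beside 18.3%, 17.3% and 28% of all genes in either direction. Ptgs2 encodes cyclooxygenase-2, whose prostaglandins from the macula densa stimulate renin release. It was at least 4.58-fold higher in IRI than in sham kidneys, a lower bound because its probe was not well above background in sham (limma adjusted p = 0.00284). Ptger4, a prostaglandin E2 receptor of renin cells, rose by 1.43 ± 0.31 and Adora1, the adenosine A1 receptor that restrains renin release, by 0.86 ± 0.22 in IRI kidneys. Adrb1, the beta-1 adrenergic receptor through which sympathetic nerves release renin, fell by 1.80 ± 0.28 in IRI (adjusted p = 0.00903), from -2.22 and -2.10 in sham to -3.93 and -3.99.

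The vascular smooth muscle and juxtaglomerular list had 1 of 10 genes higher in IRI, 1 of 10 in control-miRNA and 5 of 10 in mimic kidneys, beside 9.45%, 9.55% and 15.2% of all genes, with none lower against sham; its summed level was 38.8 to 46.6 in sham, 102 to 107 in IRI, 80.3 to 129 in control-miRNA and 78.0 to 162 in mimic kidneys. That sum leans on its brightest genes. Mcam read 3.73 and 4.21 in the sham kidneys and 5.89 and 5.96 after IRI. Tagln read 3.01 and 3.26 in sham kidneys and 6.20 and 4.39 with the mimic. Differences from sham were positive for 6 of 10 genes after IRI (median 0.32), with 4 negative. With the control miRNA 6 were positive and 4 negative (median 0.08), and with the mimic 8 and 2 (median 0.63). The genes that rose in mimic kidneys were Acta2, Gja5, Notch3, Smtn and Tagln. Of these, Acta2 and Tagln are contractile genes also made by activated fibroblasts. Macrophage markers, whose cells can also make components of the system, had 1 higher and 3 lower of 9 in IRI kidneys, where 18.3% of all genes were called. The mesangial, mast cell and adipose lists had 1 of 7, 0 of 2 and 2 of 3 genes called in IRI kidneys, numbers too small to set against that share. Of the adrenal list, 5 of 9 genes were tested, with 1 higher and 1 lower than sham in each injured group, also too few to weigh. Its genes Cyp11b1, Cyp11b2, Cyp11a1 and Mc2r were not well above background.

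The kinin system, which Ace also serves as a bradykinin-degrading enzyme, had 11 of 13 genes tested. In IRI kidneys 1 rose and 4 fell, in control-miRNA 1 rose and 2 fell, and in mimic kidneys 1 rose and 3 fell. These were 45.5%, 27.3% and 36.4% of the list, against 18.3%, 17.3% and 28% of all genes. The gene that rose was Bdkrb2, the constitutive bradykinin receptor, from -3.58 and -3.32 in sham to 0.23 and 0.02 in IRI kidneys (3.58 ± 0.46, limma adjusted p = 0.00475), by 2.88 ± 0.46 in control-miRNA and by 2.51 ± 0.46 with the mimic. Serping1, the C1 and kallikrein inhibitor, fell by 1.66 ± 0.21, Klkb1, plasma prekallikrein, by 2.41 ± 0.31 and Cpm, a kinin-trimming carboxypeptidase, by 1.50 ± 0.22 in IRI kidneys. Cpm, Klkb1 and Serping1 were higher in mimic than in IRI kidneys, which is 3 of 11 genes (27.3%), beside 16% of all genes. No gene at all was called in that comparison with array brightness as a covariate.

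Downstream of the type 1 receptor, 25 signalling genes were tested. In IRI kidneys 2 rose and 3 fell, in control-miRNA 2 rose and 2 fell, and in mimic kidneys 1 rose and 3 fell; called genes were 20%, 16% and 16% of the list, beside 18.3%, 17.3% and 28% of all genes, which leaves the list near that background or below it. Nox4, a renal NADPH oxidase, fell by 1.21 ± 0.20 in IRI, fell by 1.27 ± 0.20 in control-miRNA and fell by 1.39 ± 0.20 with the mimic (limma adjusted p = 0.0103, 0.00973 and 0.00565). Grk5, a kinase that desensitises such receptors, rose by 1.07 ± 0.19, 0.94 ± 0.19 and 1.22 ± 0.19. Rgs2, which shortens Gq signalling, rose by 1.68 ± 0.34 in IRI. Cybb, the phagocyte oxidase subunit, is counted among the genes that fell in IRI kidneys, but its probe was well above background on 3 of 8 arrays and on neither IRI array, so no fold is given. Of 18 aldosterone-response genes, 1 rose and 6 fell in IRI kidneys, 4 rose and 2 fell in control-miRNA kidneys, and 4 fell in mimic kidneys, which is 38.9%, 33.3% and 22.2% of them beside the same shares of all genes. Those that fell in IRI included Wnk1 by 1.21 ± 0.21, Usp2 by 2.10 ± 0.42, Kcnj1, the potassium channel ROMK, by 1.22 ± 0.26, and Tsc22d3, the hormone-induced GILZ gene, by 1.20 ± 0.31.

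Among themselves, the members did not follow 1 profile. By the same root mean square difference over the 8 arrays, Enpep and Atp6ap2 were the most alike (0.27), then Agtr1a and Enpep (0.28). Ren1 and Agt were the least alike (1.28). The measure used main probes only, so the opposite course of the other Enpep probe does not enter it. It is not scaled to a gene's range, which was 1.00 for Atp6ap2 and 1.45 for Enpep but 2.34 for Ren1 and 2.32 for Agt. The control-miRNA kidney with the lowest Ren1 was not the one with the lowest Agt. The nearest genes to Enpep were Cdh4, Tmco1 and Depdc7 (0.16 each), and those to Agt were Ccdc103 (0.25), Rnf32 (0.29) and Eme2 (0.29). Over the injured kidneys the levels of Ren1 and Agt spanned more than those of 94.2% and 93.7% of all genes, and those of Agtr1a and Atp6ap2 more than 47.3% and 45.5%.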

How the data were processed

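Total RNA from each kidney was Cy3-labelled and hybridised to 1 one-colour array, per the labels' protocols. Agilent Feature Extraction 12.0.3.1 made the processed signals, as the submitters' processing notes and each file's header name it, and these background-subtracted intensity values were deposited without scaling between arrays. A deposited table held each probe as a linear ratio to its median over the 8 arrays (r across probes with the scanner values 0.961 to 0.997); no source used here gives its scaling, and it served as an alternative.

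Control spots and outlier spots (79 to 127 per array) were left out, log2 signals were set against each array's 75th percentile, and 32218 of 56605 probes well above background on both arrays of a group were kept. The brightest probe stood for each of 21264 genes. Of the probes, 33767 were named by accession, 9866 by a current and 310 by an older symbol in RefSeq's table, and 12662 kept the file's name. limma 3.58.1 in R 4.3.3 fitted the 4 groups together (6.84 residual degrees of freedom after moderation), with Benjamini-Hochberg adjustment over all genes. The fit was tested on simulated data with independent normal noise for each gene. Those data held no differences between whole arrays, so the test does not cover them. With 2 arrays per group, their number limits the precision, and an array's mouse is its replicate.

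The members and gene lists were chosen with earlier results of these data known. Named were all members, pathway genes called in any of 6 comparisons (and Agtr1b, Agtr2 and Mas1 in any case), up to 4 genes of each other list by smallest p in IRI against sham, and the 3 genes nearest each member. A bound ("at least") sets the bright group against the array's lowest signal above background. Values of some genes that this rule names are not reported here.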

Additional observations from a re-analysis of the deposited data

How the results depend on the processing

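Outside the runs without 1 array, 222 gene differences kept their direction and side of the threshold, 14 lost a call, 6 gained one and 10 changed sign. Counts are given as members, pathway genes and all genes. Normexp correction called 9 pathway genes in mimic against sham, 1, 2 and 5833 in mimic against control miRNA, and 3, 5 and 10343 in mimic against IRI. Quantile normalization called 2227 of all genes in mimic against IRI. Without the filter on dim probes the counts were 0, 3 and 2450 in IRI against sham, 0, 2 and 2279 in control miRNA against sham, 2 pathway genes and 3853 of all genes in mimic against sham, and 6 and 11947 in mimic against IRI. With the mean of a gene's probes, 4 pathway genes were called in IRI against sham, and against the control miRNA the mimic difference became -0.035 for Ren1 and 0.53 for Enpep, and against IRI 0.26 for Enpep. With array brightness as a covariate the counts were 1, 2 and 1857 in IRI, 0, 0 and 115 in mimic against sham, and 0 pathway genes and 0 of all genes in mimic against IRI. Under it the mimic difference became 0.67 for Ren1 against sham, -0.87 for Agt, 0.082 for Agtr1a and 0.076 for Enpep against control miRNA, and -1.93 for Agt and 0.20 for Agtr1a against IRI; control miRNA against IRI became 0.11 for Agtr1a. Fitting only the 2 groups compared gave 4, 11 and 6785 in IRI against sham, 0 members in control miRNA against sham, 2 pathway genes and 3039 of all genes in mimic against sham, and 0 pathway genes and 0 of all genes in mimic against IRI. Of 181 calls of list genes, 1 changed sign under quantile normalization and in the deposited ratios (Kap, mimic against IRI) and 1 under normexp (Scnn1b, IRI against sham). The cause of these changes was not tested.

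Leaving out each array in turn, which in limma assumes that a lone sample varies like the other groups, gave 0 to 2 members, 1 to 9 pathway genes and 801 to 5956 of all genes in IRI against sham, 0 to 2, 1 to 9 and 694 to 5722 in control miRNA, and 0 to 4, 1 to 7 and 1100 to 7339 in mimic against sham. Mimic against control miRNA gave 0 to 1, 0 to 7 and 0 to 6318, and mimic against IRI 0 to 7 pathway genes and 0 to 7545 of all genes, the highest values without mimic 6. Differences that changed sign ranged from -0.45 to 0.0099 (Enpep, IRI against sham), -2.19 to 0.16 (Ren1, control miRNA against sham), -1.05 to 1.29 (Ren1), -0.29 to 1.81 (Agt) and -0.65 to 0.40 (Ace) in mimic against control miRNA, -0.48 to 0.81 (Ren1), -0.29 to 0.64 (Agt) and -0.51 to 0.044 (Ace) in mimic against IRI, and -1.13 to 1.21 (Ren1), -1.64 to 0.46 (Agt), -0.63 to 0.41 (Ace) and -0.34 to 0.21 (Agtr1a) in control miRNA against IRI. No paired analysis was possible because each mouse belonged to only 1 group. The brightness of the dimmest arrays limits what low probes can show.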

Other observations

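Of the endothelial markers, 5 of 10 were higher in mimic than in IRI kidneys, where 16% of all genes were called. These 5 were Cdh5, Egfl7, Emcn, Eng and Flt1, by 0.80 to 1.18 on the log2 scale. The summed level of all 10 was 27.8 to 28.3 times the 75th percentile in IRI, 27.5 to 31.9 in control-miRNA, 49.9 to 60.7 in mimic and 38.3 to 45.0 in sham kidneys. Macrophage markers had 4 of 9 higher in mimic than in IRI kidneys. Neither list had a gene called between mimic and control-miRNA kidneys by limma. The calls in mimic against IRI depended on the fit. No gene at all was called there with array brightness as a covariate or with these 2 groups fitted alone. Probes of 1 gene had opposite signs in that comparison for 50.6% of the genes with 2 or more probes.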
